A study of Mus musculus with 8 samples.

Results

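RNA levels of 10 elastic fibre and microfibril genes were read in the mouse left ventricle. The genes were elastin (Eln), the fibrillins Fbn1 and Fbn2, the fibulins Fbln1, Fbln2 and Fbln5, the microfibril-associated proteins Mfap2, Mfap4 and Mfap5, and Emilin1. They were taken by name, and all 10 were found among the 55679 genes of the expression table. Left ventricles of male wild-type (WT) C57BL/6J mice were compared after 7 days of infusion from a pump placed under the skin, with saline in the control group (4 libraries) and angiotensin II at 1500 ng/kg/min in the ANG II group (4 libraries). Angiotensin II is a peptide hormone that constricts vessels and raises blood pressure, and at this dose it served as a model of hypertensive left ventricular hypertrophy (hypertensive-LVH). The animals carried no engineered allele, the hearts of both groups were flushed with saline before the ventricle was taken, and the sources used here give no age. The study describes its sequencing samples as biological replicates, of which the libraries analysed here are a part, and the labels do not say whether a library came from 1 animal. P-values therefore measure the spread between these libraries. The extraction notes in the labels mention CRC cells, whereas the source label is left ventricle and 5 cardiomyocyte markers (Myh6, Tnnt2, Tnni3, Actn2 and Ryr2) summed to 16382 to 22548 FPKM in the 8 libraries.

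FPKM counts the sequenced fragments of a gene, divided by its transcript length and by the size of the library, and is therefore a level per length and relative to the whole library. The spacing of low FPKM values implied about 14455650 to 16564820 fragments per library. Libraries of the same group correlated across genes at 0.988 to 0.990 and libraries of different groups at 0.970 to 0.977, and genes are not independent replicates. Calls were made with limma on log2(FPKM + 1) at a Benjamini-Hochberg adjusted p-value under 0.05 together with a log2 fold change beyond 0.5 in either direction. All log2 fold changes below are ANG II against control on that scale, which understates the change of genes with low values.

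Elastic fibres give recoil to arteries, heart valves and the cardiac interstitium. They consist of a core of cross-linked elastin laid on a scaffold of microfibrils, whose backbone is fibrillin. Fibulins, microfibril-associated glycoproteins and EMILINs bind at the surface of the core or along the microfibril and take part in assembly, lysyl oxidases cross-link the elastin, and latent TGF-beta binding proteins dock on the microfibril. In the heart these proteins are made mainly by fibroblasts and by vascular smooth muscle cells.

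The coding sequences show how unlike the core and the scaffold are, and 2 stretches are printed to make this visible. Among the coding sequences of 20949 mouse genes in GENCODE M21, the share of glycine codons (GGN) had a median of 6.03%. In Eln it was 36.3%, higher than in 99.9% of genes. The share of cysteine codons (TGC or TGT) had a median of 2.12% over the same genes and was 0.233% in Eln, but 12.6% in Fbn1 and 12.5% in Fbn2. Below are the 30 codons of Eln richest in GGN and the 30 codons of Fbn1 richest in TGC or TGT, both read 5′ to 3′. Those of Eln lie at GRCm38 chr5:134707556-134707645 (minus strand, exon 31 of 37, codons 730 to 759, with 19 GGN codons in capitals). Those of Fbn1 lie at GRCm38 chr2:125477561-125479244 (minus strand, across exons 3 and 4 of 66, codons 65 to 94, with 6 TGC or TGT codons in capitals). Exons are numbered over the whole transcript, with untranslated exons counted.
Eln: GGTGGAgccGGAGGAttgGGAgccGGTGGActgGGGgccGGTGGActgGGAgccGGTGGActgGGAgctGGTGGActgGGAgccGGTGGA
Fbn1: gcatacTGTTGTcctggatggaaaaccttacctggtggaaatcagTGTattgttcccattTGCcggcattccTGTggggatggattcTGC
The fibulins were on the cysteine-rich side too, with 10.2% in Fbln1, 8.89% in Fbln5 and 8.76% in Fbln2. Mfap2 held 7.57% and Mfap5 4.88%, whereas Mfap4 (2.85%) and Emilin1 (2.26%) lay close to the median gene. Emilin1 was instead the second of the 10 genes in glycine codons, at 13.7%.

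A second feature was shared by 7 of the 10 genes. Their coding sequences held the codons for Arg-Gly-Asp in a row, the tripeptide that many integrins recognise, against 7.45% of all genes, a share that takes no account of the length of the sequence. The run was searched on the coding strand as CGN, AGA or AGG, then GGN, then GAC or GAT. It occurred 2 times in Fbn2, once in each of 6 other genes, and not in the coding sequences used for Eln, Fbln1 and Mfap2. A match is a description of the sequence and does not show that an integrin binds there. Windows of 11 codons from 5 of these genes, with the run in capitals, are printed below so that its setting can be compared between genes, each 5′ to 3′ on the coding strand.
Fbn1: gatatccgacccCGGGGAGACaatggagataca
Fbln5: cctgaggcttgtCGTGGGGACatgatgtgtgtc
Mfap4: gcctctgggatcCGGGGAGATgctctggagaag
Mfap5: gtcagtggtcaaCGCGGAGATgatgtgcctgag
Emilin1: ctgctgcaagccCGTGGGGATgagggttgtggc
In GRCm38 these windows lie at chr2:125345961-125345993 (minus strand, exon 38) for Fbn1 and chr12:101809915-101809947 (minus, exon 4) for Fbln5. Those of Mfap4, Mfap5 and Emilin1 lie at chr11:61485784-61486048 (plus, exons 2 and 3), chr6:122515365-122520592 (plus, exons 3 and 4) and chr5:30918136-30918168 (plus, exon 4). The run falls near the start of the protein in Mfap4 and Mfap5, within codons 24 to 34 of 281 and 26 to 36 of 164, and within codons 1539 to 1549 of 2873 in Fbn1.

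All 10 genes were higher in the ANG II group. Each was called by limma, and in each the lowest ANG II library lay above the highest control library. For comparison, 14.0% of the 19364 genes tested were called higher, 15.4% were called in either direction and 28.7% had all ANG II libraries above all control libraries. Their log2 fold changes ranged from 0.72 to 2.91 with a median of 1.90, beside a median of 0.15 over all genes tested. Summed over the 10 genes, the level was 183 to 252 FPKM in control libraries and 685 to 877 FPKM in ANG II libraries, 3.76-fold higher by the means. In tissue RNA, more cells of a type and more RNA per cell cannot be told apart.

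**Figure D1:**
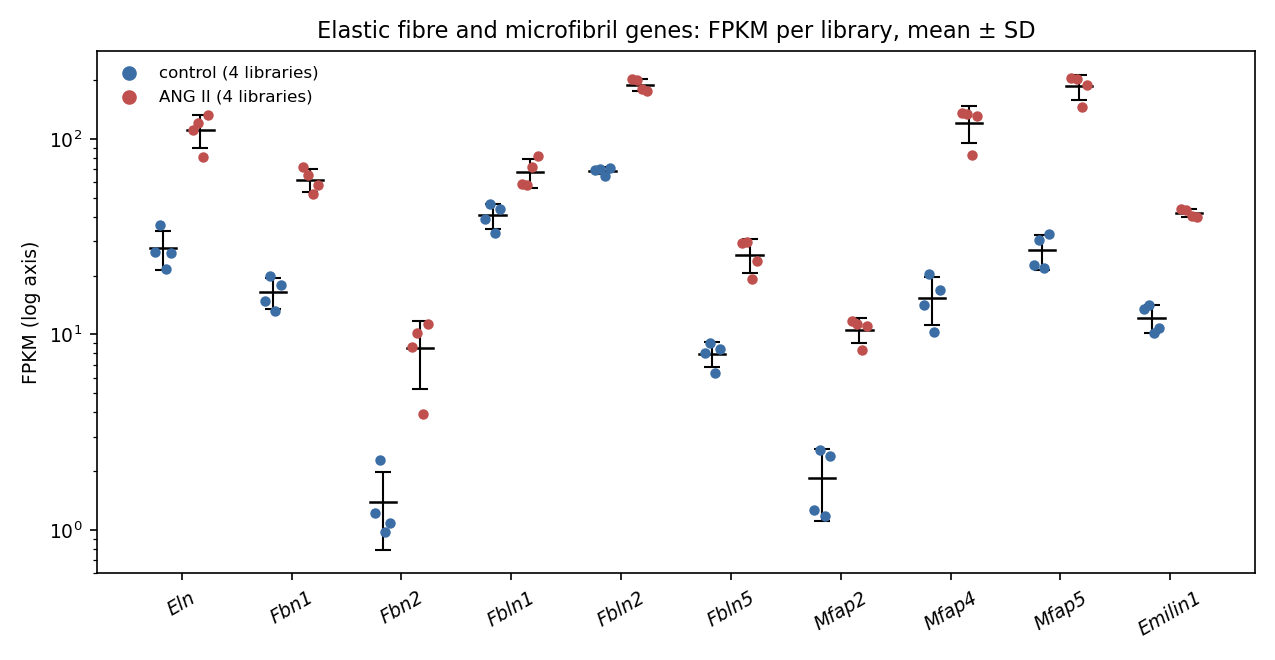
FPKM of the 10 genes in each library on a log axis, with blue points for the 4 control libraries, red points for the 4 ANG II libraries, and bars for the mean ± SD. The 2 groups do not overlap for any of the 10 genes, and the gap is narrowest for Fbln1, whose lowest ANG II library (57.7 FPKM) lies above its highest control library (46.4 FPKM).

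Eln encodes tropoelastin, the monomer of the elastic core (chr5:134702593-134747323, minus strand, GRCm38). It was measured at 26.3, 36.4, 21.6 and 25.9 FPKM in control libraries 1 to 4 and at 111, 120, 80.9 and 132 FPKM in ANG II libraries 1 to 4. The mean rose from 27.6 ± 6.29 to 111 ± 21.9 FPKM (SD, n = 4 each), a 4.03-fold difference. The log2 fold change was 1.97 (standard error 0.173, adjusted p = 4.28e-05 by limma), and even the lowest ANG II library stood 2.22-fold above the highest control library. These levels rested on 981 to 1460 fragments per control library and 3357 to 5798 per ANG II library. Of the Eln exon length, 3.30% lies under an antisense gene, Gm30003, which was at 0 to 0.0965 FPKM.

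The fibrillins form the backbone of the microfibril, with Fbn1 as the main form after birth and Fbn2 best known from development. Fbn1 (chr2:125300594-125507993, minus strand) was measured at 14.8, 19.9, 13.2 and 17.8 FPKM in control libraries and at 71.3, 65.1, 52.1 and 57.8 FPKM in ANG II libraries. Its mean rose 3.75-fold, from 16.4 ± 2.98 to 61.6 ± 8.39 FPKM (SD, n = 4 each; log2 fold change 1.85, standard error 0.131, adjusted p = 1.26e-05 by limma). An antisense gene, Gm9913, covers 20.1% of the Fbn1 exon length. It was listed at no more than 0.189 FPKM in any library, and whether reads were assigned by strand was not given in the sources used here.

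Fbn2 was far scarcer and rose as well. Control libraries held 1.22, 2.27, 0.978 and 1.08 FPKM and ANG II libraries 8.60, 10.1, 3.94 and 11.2 FPKM, so ANG II library 3 stood well below the other 3 ANG II libraries and still above all controls. The mean went from 1.39 ± 0.596 to 8.48 ± 3.22 FPKM (SD, n = 4 each), 6.10-fold. The log2 fold change was 1.94 (standard error 0.278, adjusted p = 0.000618 by limma), and it was 2.50 with a pseudocount of 0.1 in place of 1. Between 43 and 88 fragments in a control library stood behind these values.

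The 3 fibulins rose by 1.67-fold to 3.21-fold in the mean. Fbln2, which binds fibrillin and elastin, was the most abundant of the 10 genes by mean FPKM in both groups (chr6:91212455-91272540, plus strand). It was measured at 69.1, 70.1, 64.6 and 70.8 FPKM in control libraries and at 201, 200, 180 and 176 FPKM in ANG II libraries. The mean rose 2.76-fold, from 68.7 ± 2.81 to 189 ± 13.3 FPKM, and the log2 fold change was 1.45 with the smallest SE of the 10 genes, 0.0589 (n = 4 each, limma adjusted p = 1.46e-06).

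Fbln5, which tethers elastin to cell-surface integrins and is needed for elastic fibre assembly, lies at chr12:101746565-101819055 on the minus strand. Its levels were 8.04, 9.07, 6.34 and 8.46 FPKM in control libraries and 29.4, 29.8, 19.3 and 23.8 FPKM in ANG II libraries. The mean rose 3.21-fold, from 7.98 ± 1.17 to 25.6 ± 5.01 FPKM (n = 4 each, log2 fold change 1.56, standard error 0.146, adjusted p = 6.10e-05 by limma). Fbln1, found in elastic fibres and basement membranes (chr15:85205949-85286535, plus strand), changed least. Its control libraries held 39.0, 46.4, 33.1 and 43.8 FPKM and its ANG II libraries 58.9, 57.7, 72.1 and 81.9 FPKM, and the groups did not overlap. The mean rose 1.67-fold, from 40.6 ± 5.84 to 67.7 ± 11.5 FPKM (n = 4 each, log2 fold change 0.72, standard error 0.131, adjusted p = 0.00229 by limma). Under median-of-ratios scaling it was 0.49 (limma adjusted p = 0.0162), which is under the fold threshold, so that 9 of the 10 genes were called with that scaling.

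Of the 3 microfibril-associated proteins, Mfap4 and Mfap5 had the highest log2 fold changes of the 10 genes. Mfap4, a fibrinogen-related protein that binds elastin and fibrillin (chr11:61485431-61488900, plus strand), was measured at 14.1, 20.3, 10.3 and 16.9 FPKM in control libraries and at 135, 135, 82.5 and 131 FPKM in ANG II libraries. The mean rose 7.86-fold, from 15.4 ± 4.24 to 121 ± 25.7 FPKM (SD, n = 4 each). Its log2 fold change of 2.91 (standard error 0.209, adjusted p = 1.38e-05 by limma) ranked 30 among the 19364 genes tested. ANG II libraries 1, 2 and 4 lay close together and ANG II library 3 lay below them. Mapk7 overlaps 4.63% of the Mfap4 exon length on the opposite strand and was itself called higher, from 4.17 to 7.20 FPKM.

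Mfap5 and Mfap2 encode the small glycoproteins MAGP-2 and MAGP-1, which sit along fibrillin microfibrils. Mfap5 (chr6:122505845-122529290, plus strand) held 22.8, 30.5, 21.7 and 32.6 FPKM in control libraries and 206, 201, 145 and 189 FPKM in ANG II libraries. The mean rose 6.89-fold, from 26.9 ± 5.44 to 185 ± 27.8 FPKM, and its log2 fold change of 2.75 (standard error 0.149, n = 4 each, adjusted p = 3.96e-06 by limma) ranked 36 among all genes tested. Mfap2 (chr4:141010418-141015984, plus strand) was much scarcer, at 1.26, 2.58, 1.17 and 2.38 FPKM in control libraries and 11.7, 11.3, 8.28 and 11.03 FPKM in ANG II libraries. Its mean rose 5.72-fold, from 1.85 ± 0.735 to 10.6 ± 1.55 FPKM (n = 4 each, log2 fold change 2.05, standard error 0.185, adjusted p = 5.01e-05 by limma). Only 15 to 31 fragments per control library stood behind Mfap2, and its log2 fold change was 2.52 with a pseudocount of 0.1.

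Emilin1, which lies at the interface of elastin and microfibrils (chr5:30913402-30921277, plus strand), varied little within the ANG II group. It was measured at 13.5, 14.1, 10.2 and 10.7 FPKM in control libraries and at 43.5, 43.1, 40.3 and 40.05 FPKM in ANG II libraries. The mean rose 3.44-fold, from 12.1 ± 1.97 to 41.8 ± 1.83 FPKM (n = 4 each, log2 fold change 1.72, standard error 0.10, adjusted p = 5.03e-06 by limma). Among all genes tested, the log2 fold changes of Mfap2, Eln, Fbn2, Fbn1 and Emilin1 ranked 91, 105, 111, 135 and 165, those of Fbln5 and Fbln2 ranked 225 and 284, and that of Fbln1 ranked 1604.

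Control library 3 was the lowest control library for all 10 genes, and control library 2 was the highest for 8 of them. ANG II library 3 was the lowest of its group for 7 genes, but it held the second highest Fbln1 level. ANG II library 1 was the highest of its group for 6 genes, library 4 for 3 and library 2 for 1, and library 4 was also the lowest for 2. The marker sums of libraries 3 of both groups are given beside this. Control library 3 had the lowest sum of the fibroblast lineage markers Pdgfra, Tcf21, Ddr2, Dpt and Gsn among controls (738 FPKM, against 942 to 962 FPKM), the lowest sum of the activated fibroblast markers Postn, Cthrc1, Meox1 and Fap (33.0 FPKM) and the lowest sum of the atrial markers Sln, Myl7 and Myl4 (1.15 FPKM, against 20.4 to 48.8 FPKM). ANG II library 3 had the lowest activated fibroblast sum of its group (571 FPKM, against 657 to 897 FPKM) and the highest atrial sum (230 FPKM, against 52.5 to 126 FPKM). Its fibroblast lineage sum (819 FPKM) was the second highest of its group (548 to 830 FPKM) and its macrophage marker sum (327 FPKM) the highest. Their part in the order of the libraries was not tested. With any 1 library left out, all 10 genes remained called and the median log2 fold change was 1.81 to 2.02.

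The order of the levels differed between the groups. By mean FPKM in the control group the order was Fbln2, Fbln1, Eln, Mfap5, Fbn1, Mfap4, Emilin1, Fbln5, Mfap2 and Fbn2. Neighbours whose libraries overlapped were Fbln1 and Eln, Eln and Mfap5, Fbn1 and Mfap4, Mfap4 and Emilin1, and Mfap2 and Fbn2. In the ANG II group the order was Fbln2, Mfap5, Mfap4, Eln, Fbln1, Fbn1, Emilin1, Fbln5, Mfap2 and Fbn2. There the libraries of Fbln2 and Mfap5, Mfap4 and Eln, Eln and Fbln1, Fbln1 and Fbn1, and Mfap2 and Fbn2 overlapped. Mfap5 and Mfap4 thus stood above Eln and Fbln1 in the ANG II group, although Mfap4 and Eln could not be separated by their spread.

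This order depends on the length that each gene was divided by. The low FPKM values fell on whole fragments when multiplied by the mean length of the annotated transcripts, which for Fbn2 is 2655 bases although its longest transcript has 11041, and for Fbln2 is 1578 bases against 4786. Scaled to the longest transcript instead, the ANG II means were 81.6 FPKM for Mfap4, 79.1 for Eln, 74.6 for Mfap5 and 62.4 for Fbln2. On the same scale Fbln1 (23.4) and Fbln2 (22.6) led in the control group, and Fbn2 was at 2.04 in the ANG II group. The fold of the mean FPKM between groups does not depend on this length, whereas the log2 fold change of a low gene does, through the pseudocount.

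In the 10-gene sum, Fbln1 and Fbln2 held a smaller share in the ANG II group and Mfap4 and Mfap5 a larger one. Fbln1 held 18.5% ± 0.372 of the summed FPKM in control libraries and 8.36% ± 2.00 in ANG II libraries (SD, n = 4 each), without overlap. Fbln2 held 31.7% and 23.2%. Mfap5 held 12.2% and 22.4% and Mfap4 6.93% and 14.6%, again without overlap between groups. The smaller shares of Mfap2 (0.825% and 1.28%) and Fbln5 (3.64% and 3.09%) did not overlap between groups either. The shares of Eln (12.5% and 13.4%) and Fbn1 (7.46% and 7.49%) differed between groups by less than their SD, and so did that of Emilin1 (5.56% and 5.12%). Fbn2 held 0.622% ± 0.192 and 1.01% ± 0.320, with overlap between groups. These shares were not tested, and they sum to a whole, so that a larger share of 1 gene lowers the others.

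**Figure D2:**
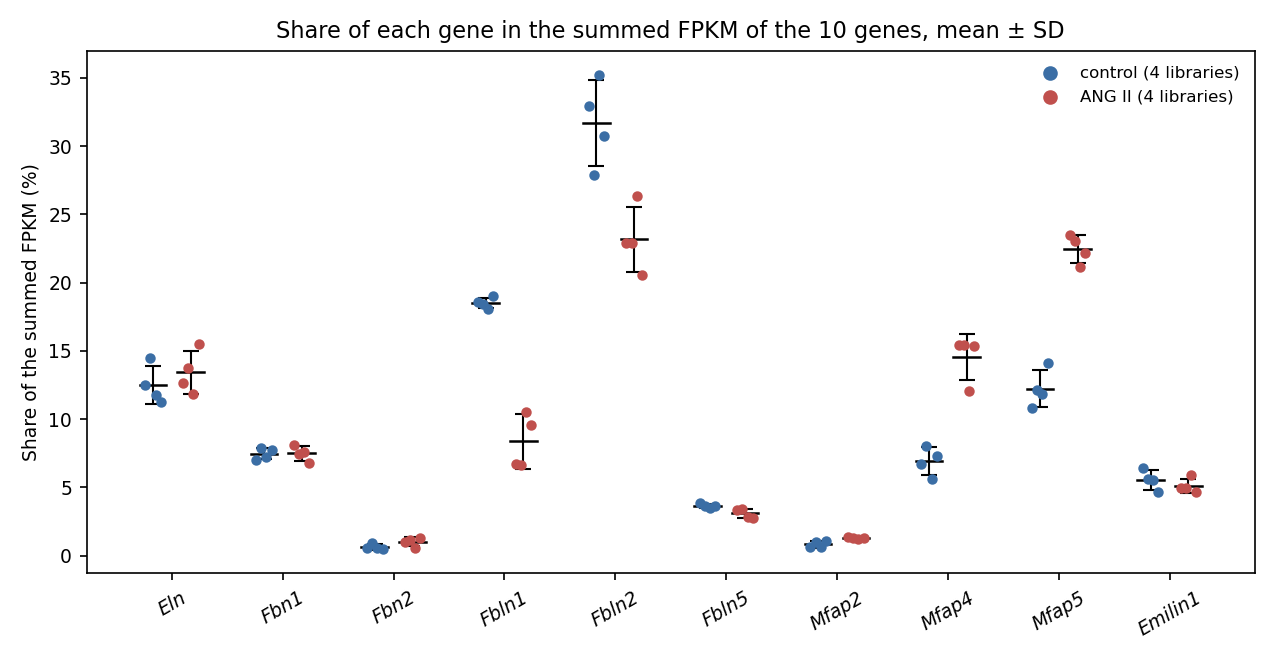
Share of each gene in the summed FPKM of the 10 genes (percent, linear axis), with blue points for the 4 control libraries, red points for the 4 ANG II libraries, and bars for the mean ± SD. The mean share of Fbln1 is 18.5% in control and 8.36% in ANG II libraries, that of Mfap5 is 12.2% and 22.4%, and that of Fbn1 is 7.46% and 7.49%.

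Genes were also set against each other within the same library, on the log2(FPKM + 1) scale, and 6 such ratios were compared by exact two-sided permutation tests, for which the smallest possible p with 4 against 4 libraries is 0.0286. Differences below are ANG II minus control of the log2 ratio. Eln relative to Fbn1, the core relative to its scaffold, differed by 0.12 (SE 0.149, exact p = 0.514, adjusted over the 6 ratios 0.617). Emilin1 relative to Eln differed by -0.26 (SE 0.172, exact p = 0.2, adjusted 0.4), and Fbln2 relative to Fbln5 by -0.11 (SE 0.126, exact p = 0.457, adjusted 0.617). For these 3 ratios no difference was shown beyond the spread between libraries. With 1 library left out they ranged from 0.0044 to 0.19, from -0.39 to -0.15 and from -0.21 to -0.042, in that order. None passed the threshold, but 1 ratio alone at the smallest exact p could not pass it after adjustment over the 6 ratios.

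Fbln1 relative to Fbln5 separated the groups but did not pass the threshold after adjustment. The log2 ratio was 2.14, 2.24, 2.22 and 2.24 in control libraries and 0.98, 0.93, 1.85 and 1.74 in ANG II libraries, so that all ANG II libraries lay below all controls and split into a lower pair (1 and 2) and a higher pair (3 and 4). The difference of -0.84 (SE 0.245) reached the smallest exact p, 0.0286, which was 0.0857 after adjustment over the 6 ratios. Mfap2 relative to Mfap5 differed by -0.70 (SE 0.0622) with the same exact p of 0.0286 and adjusted value of 0.0857, but with a pseudocount of 0.1 it differed by -0.27 (exact test, adjusted p = 0.171). Fbn2 relative to Fbn1 differed by 0.085 (SE 0.271, exact p = 0.743, adjusted 0.743), and by 0.59 with a pseudocount of 0.1 (exact test, adjusted p = 0.274).

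Fibroblasts are a main source of these proteins in the heart, and each gene was therefore also set against the fibroblast lineage markers of the same library. Of the 5 markers, Pdgfra (19.3 to 31.4 FPKM, log2 fold change 0.67), Tcf21 (0.74) and Dpt (0.76) were called higher. Ddr2 had a log2 fold change of 0.42 (limma adjusted p = 0.00884) and Gsn one of -0.496 (limma adjusted p = 0.0280). Both missed only the fold threshold and were not called. Gsn was the only marker of the list that was lower, which lowers the marker mean and raises the difference of each gene. A mean without Gsn was not tested. All 10 genes were higher relative to the mean of the 5 markers in the ANG II group, each with an exact two-sided p of 0.0286, the smallest possible, which adjustment over the 10 genes left at 0.0286. The difference in log2 ratio was 2.49 for Mfap4, 2.33 for Mfap5, 1.63 for Mfap2, 1.56 for Eln, 1.52 for Fbn2, 1.43 for Fbn1 and 1.30 for Emilin1. It was 1.14 for Fbln5, 1.03 for Fbln2 and 0.30 for Fbln1. Relative to Pdgfra alone, the difference for Fbln1 was 0.051 (exact test, adjusted p = 0.571) and that for Fbn2 was 1.27 (exact test, adjusted p = 0.0635), and the other 8 genes kept an adjusted p under 0.05. Against the 5 markers, the exact test for Fbln1 also gave an adjusted p of 0.0571 with a pseudocount of 0.1 (difference 0.28), without any 1 control library and without ANG II library 4, and that for Fbn2 gave the same value without any 1 control library (1.45 to 1.64).

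**Figure D3:**
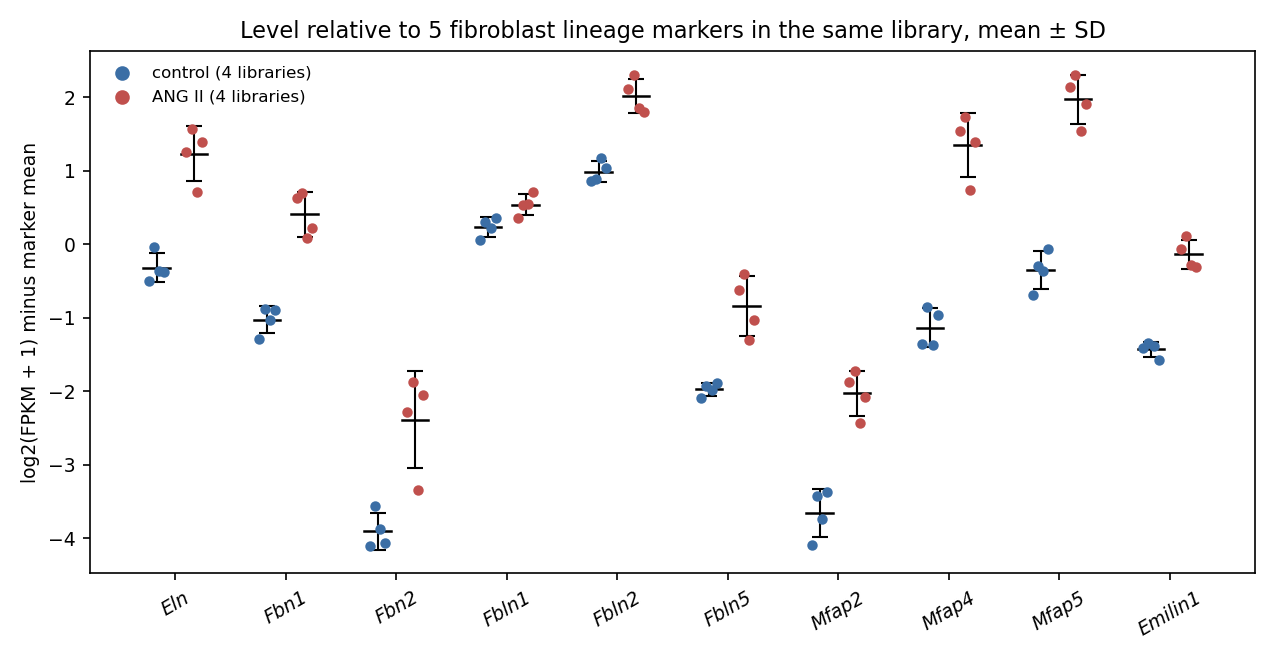
Level of each gene on the log2(FPKM + 1) scale minus the mean of 5 fibroblast lineage markers in the same library, with blue points for control, red points for ANG II and bars for the mean ± SD (4 libraries each). The groups are separate for each gene, by 2.49 in the mean for Mfap4 and by 0.30 for Fbln1.

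Markers of several cell types moved with the group. All 4 activated fibroblast markers were called higher, with sums of 33.0 to 53.1 FPKM in control libraries and 571 to 897 FPKM in ANG II libraries. The 5 macrophage markers were all called higher (102 to 127 FPKM and 244 to 327 FPKM), as were the 3 erythroid markers (90.4 to 452 FPKM and 540 to 1905 FPKM). Among the 5 smooth muscle markers only Cnn1 was called (higher), with list sums of 171 to 222 FPKM and 156 to 183 FPKM. Myh11 (13.3 and 13.6 FPKM) and Acta2 (108 and 92.6 FPKM) were not called. Smtn was lower (64.5 and 51.9 FPKM, log2 fold change -0.30, limma adjusted p = 0.0130) but under the fold threshold. Tagln was near the floor, at 0 to 0.389 FPKM. Of the cardiomyocyte markers, Myh6 and Tnni3 were called lower, and the list summed to 22028 to 22548 FPKM in control and 16382 to 17462 FPKM in ANG II libraries.

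The remaining marker lists were called in part or not at all. Of the 4 pericyte markers Cspg4 was called higher and Abcc9 lower (sums of 430 to 455 and 451 to 499 FPKM), and of the 4 endothelial markers Pecam1 was called higher (301 to 324 and 344 to 400 FPKM). None of 5 mesothelial markers (5.74 to 7.44 and 5.72 to 8.35 FPKM) or of the 2 adipocyte markers tested was called, and the third adipocyte marker, Lep, was at or near 0. All 3 atrial markers had higher means in the ANG II group, with sums of 1.15 to 48.8 FPKM in control and 52.5 to 230 FPKM in ANG II libraries. Sln was called (log2 fold change 1.69), and Myl7 (2.38, adjusted p = 0.0557 by limma) and Myl4 (2.23, adjusted p = 0.0557 by limma) were not, although their groups did not overlap. Of 4 chondrocyte and valve markers, Sox9 (means of 0.687 and 2.70 FPKM) and Acan (0.128 and 0.603 FPKM) were called higher, and the sums of the list overlapped between groups (1.51 to 6.58 and 4.17 to 9.81 FPKM). The part of these cell types in the levels of the elastic fibre genes was not tested.

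Beyond the 10 genes, 44 genes with roles in building, anchoring or degrading elastic fibres were read by role, of which 42 averaged 0.1 FPKM or more and were tested. limma called 27 higher and 1 lower, where 14.0% of all genes tested were called higher, and the median log2 fold change was 0.75, beside 0.15 over all genes tested. Under median-of-ratios scaling 24 were called. The called genes with the largest changes in each role are named here, with genes that were not called named after their values were seen.

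The 5 lysyl oxidases, which cross-link elastin and collagen, were all called higher. Lox itself was measured at 1.31, 2.13, 1.56 and 2.38 FPKM in control libraries and at 51.7, 52.7, 34.1 and 37.8 FPKM in ANG II libraries (log2 fold change 3.98, standard error 0.168, adjusted p = 1.76e-06 by limma). That change was larger than for any of the 10 elastic fibre genes. Loxl3 went from 4.01 ± 0.660 to 33.3 ± 8.04 FPKM (SD, n = 4 each), and its log2 fold change was 2.75.

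Among the latent TGF-beta binding proteins, 2 of 4 were called higher. Ltbp2 was measured at 2.48, 2.83, 1.17 and 4.71 FPKM in control libraries and at 56.6, 61.7, 29.7 and 47.6 FPKM in ANG II libraries (log2 fold change 3.75, standard error 0.294, adjusted p = 2.24e-05 by limma). Ltbp3 had a log2 fold change of 1.41. Ltbp4 was the most abundant of the 4, with a mean of 139 FPKM in the control and 193 FPKM in the ANG II group. Its log2 fold change of 0.46 (limma adjusted p = 0.00305) missed only the fold threshold, and it was not called. Ltbp1 had one of -0.061 (limma adjusted p = 0.515) and was not called either.

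Relatives of the 10 genes were called in part. Of 5 other fibulins and hemicentins, Efemp2 (fibulin-4, required for elastic fibre assembly, log2 fold change 1.51) and Fbln7 (0.71) were called higher, and Efemp1 (-0.23), Hmcn1 (-0.24) and Hmcn2 (-0.29) were not called. Emilin2, a relative of Emilin1, was the 1 gene called lower, where 1.41% of all genes tested were called lower and 5.06% had all ANG II libraries below all control libraries. The genes called lower numbered 273 with FPKM as deposited, 986 when the libraries were quantile normalized and 804 when they were scaled by median of ratios. It was measured at 22.4, 31.0, 23.3 and 25.5 FPKM in control libraries and at 15.9, 16.5, 16.003 and 16.4 FPKM in ANG II libraries (log2 fold change -0.62, standard error 0.0926, adjusted p = 0.000799 by limma). Emilin1 and Emilin2 thus changed in opposite directions, without overlap between groups in either. The multimerins Mmrn1 (0.44, limma adjusted p = 0.0877) and Mmrn2 (0.43, limma adjusted p = 0.000789) were not called, Mmrn2 only by the fold threshold. Emilin3 was too low to be tested.

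Genes that act on the microfibril or bind to it were called in part. Of 7 ADAMTS and ADAMTS-like genes, 3 were called higher, with Adamtsl2 at 1.38 and Adamtsl3 at 1.01 on the log2 fold change scale. All 3 proteoglycans were called higher. Biglycan (Bgn) went from 176 ± 27.1 to 798 ± 114 FPKM (SD, n = 4 each), and its log2 fold change was 2.18, and versican (Vcan) had one of 1.34.

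Receptors were also called. Of 6 integrin subunits that can bind elastic fibre proteins, 5 were called higher, with the largest log2 fold changes for Itgb3 (1.23, from 0.757 to 3.13 FPKM) and Itgb5 (1.07, from 78.8 to 166 FPKM), and Itga8 (0.30) was not called. In the elastin receptor complex, Ctsa (0.78) and Glb1 (0.60, which is 0.45 above the median of all genes) were called higher and Neu1 (0.19) was not.

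Proteases that can degrade elastin were mostly higher. Of 6 tested, 5 were called higher, led by Ctsk (from 2.62 ± 0.142 to 16.8 ± 2.61 FPKM, log2 fold change 2.29) and Ctss (from 20.1 ± 4.03 to 83.1 ± 15.5 FPKM, log2 fold change 2.00). Mmp9, at 1.09 and 1.17 FPKM, had a log2 fold change of 0.043 and was not called. Elane, the neutrophil elastase gene, was listed at 0 in all 8 libraries and was not tested.

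**Figure D4:**
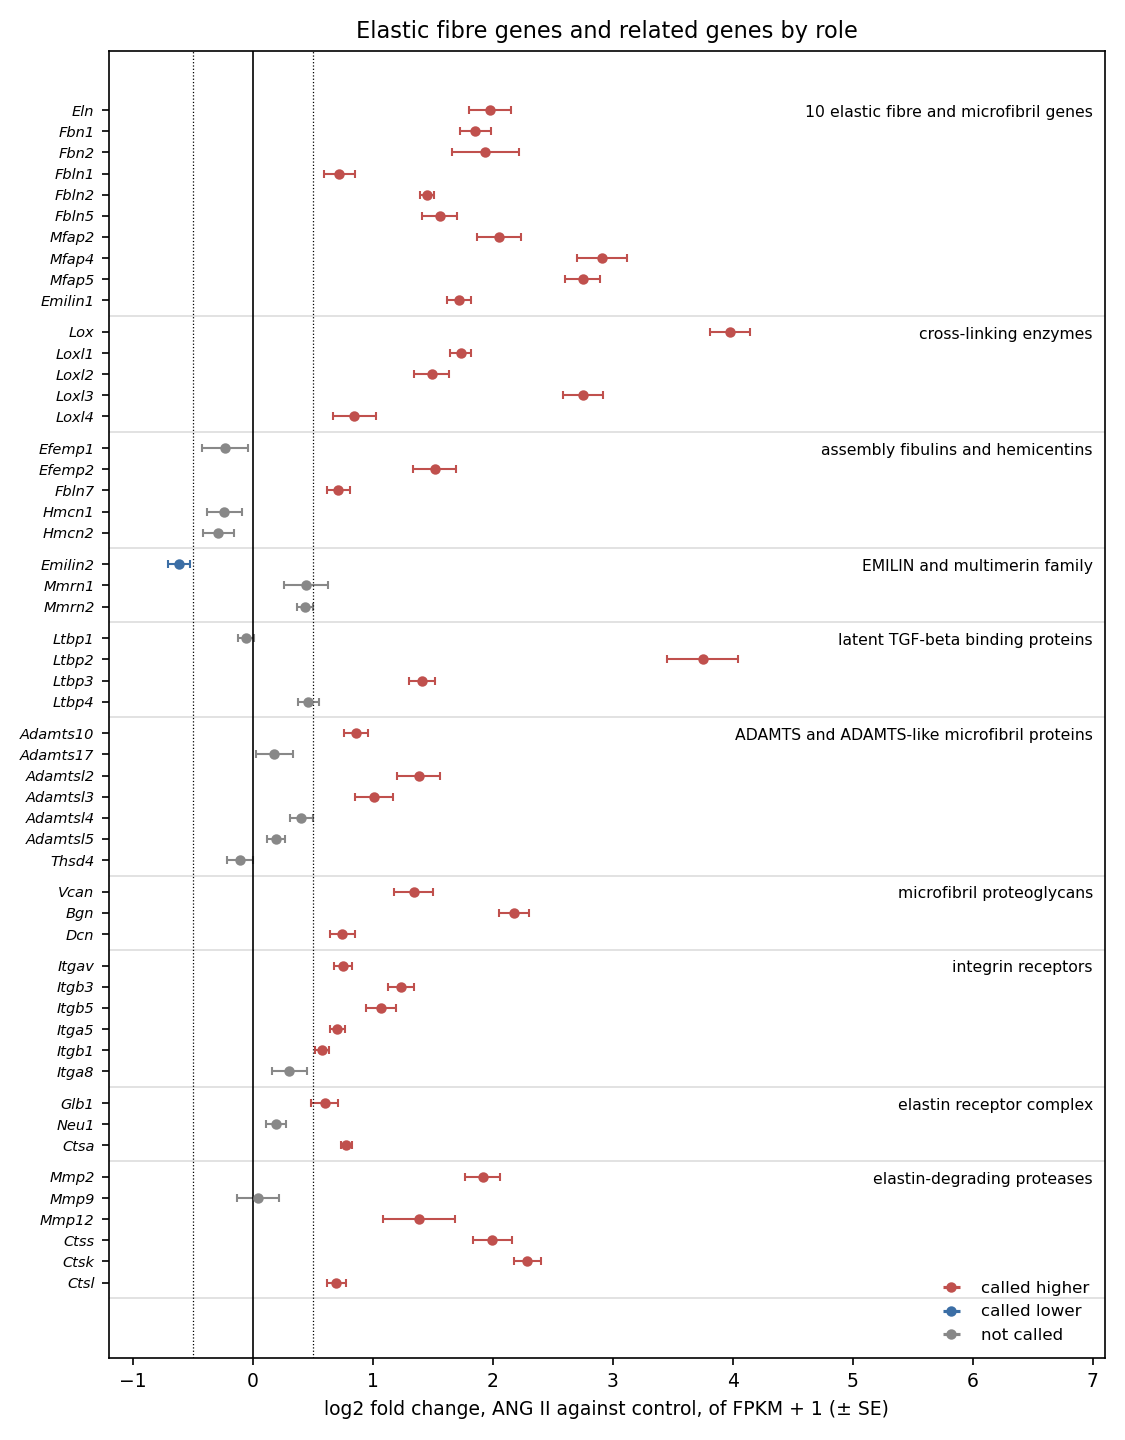
Log2 fold change (ANG II against control, log2(FPKM + 1) scale) of the 10 elastic fibre and microfibril genes and of 42 related genes by role, with bars for the standard error, 4 libraries per group, and dotted lines at the fold threshold of 0.5. All 10 genes and 27 of the related genes are called higher (red), Emilin2 at -0.62 is called lower (blue), and the cross-linking enzyme Lox at 3.98 lies farthest to the right.

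Genes whose levels followed Eln and Fbn1 most closely over the 8 libraries were sought among 12947 genes averaging 1 FPKM or more. The elastic fibre and microfibril genes themselves and genes named only by an ID were passed over. Closeness was the mean absolute difference of log2(FPKM + 1) values after each gene was centred on its own mean. For Eln these were Mmp2 (0.0784, from 53.0 to 204 FPKM), Tmem119 (0.114) and Pdgfrl (0.115). For Fbn1 they were Ctgf (0.0765, from 33.8 to 135 FPKM), Fndc1 (0.0829) and Mrc2 (0.0888). These distances are descriptions over 8 libraries in 2 groups.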

How the data were processed

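RNA-seq was measured in 8 left ventricle libraries, grouped by their treatment labels into 4 control and 4 ANG II libraries. Per the labels, polyadenylated RNA was selected with oligo(dT), and the study reports paired-end reads of 150 bases. The authors deposited FPKM values, 1 column per library. The submitters' processing notes name Bowtie2, HISAT and RSEM without their roles, and versions, genome build, annotation and use of strand are not given in the sources used here. FPKM values were used as deposited, and gene IDs were matched to GENCODE M21 (GRCm38), which held 55141 of the 55679. In the table, 27083 genes were at 0 in all libraries.

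The 19364 genes averaging 0.1 FPKM or more were fitted on log2(FPKM + 1) in all 8 libraries, without covariates, using limma 3.58.1 in R 4.3.3 (lmFit and trended eBayes). Two-sided p-values received the Benjamini-Hochberg adjustment across these genes. The study names both thresholds, but the base of the logarithm, the pseudocount and the filter were choices of this work. Ratios within a library were compared by the exact permutation test over 70 allocations. Other steps ran in Python 3.11.15 with scipy 1.17.1, pandas 2.3.3, numpy 2.4.6 and matplotlib 3.10.9. The limma step was tested on simulated data.

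Fragments were recovered by multiplying FPKM by the mean transcript length. Of the values under 60 fragments, 98.1% to 98.5% came out whole within 0.05 fragments, and the depth they give speaks to counting error only. Coding features came from the longest complete coding sequence of each gene, and overlaps from exons and shared words of 50 bases. No protein table was used here. Not every sequence window found is reported here.

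The 10 genes and all lists were chosen with earlier results of these data known. All 10 are named. Of the related genes, the text names per role up to 2 called genes that changed most and any called lower. For likeness it names the 3 nearest genes to Eln and to Fbn1 outside the 10, with genes named only by an ID passed over. Alternatives changed the pseudocount, filter, scaling, variance trend, fold threshold, replicate block, tested values (voom on recovered fragments), the libraries kept and, for the ratios, the marker list. The study's further libraries were not analysed here.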

Additional observations from a re-analysis of the deposited data

Results flagged for a closer look

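One value stood apart from its group. In the ANG II group, Mfap4 was at 82.5 FPKM in library 3 and at 131 to 135 FPKM in the other 3 libraries, a gap that made up 0.928 of the group's range, above Dixon's 95% critical value for 4 samples. This was the single such case among 52 sets of 4 values examined (levels, ratios between genes and ratios to the fibroblast markers), and chance alone marks about 1 in 20 sets. The same library had the lowest activated fibroblast marker sum of its group (571 FPKM) and the highest atrial marker sum (230 FPKM), whose part in this value was not tested. Without that library, all 10 elastic fibre genes remained called, with log2 fold changes of 0.68 to 3.08.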

How the results depend on the processing

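Under other settings, 396 recomputed values either kept their direction and side of the threshold or, for counts, stayed within 1.5 times the reported count, 13 no longer passed the threshold, 4 moved and 2 changed sign. Of the counts, the elastic fibre genes called went from 10 to 9 under median-of-ratios scaling and at a fold threshold of 1, and the changed genes went to 3997 with voom and 3816 with a pseudocount of 0.1. The count of changed genes went from 2981 to 6447 without a fold threshold and to 795 with an absolute log2 fold change above 1, where the related genes called went from 28 to 17 and the cause is the threshold itself. The median log2 fold change of the 10 genes moved from 1.90 to 1.66 under quantile normalization. Calls higher made up 90.8% of all calls with FPKM as deposited (2708 higher, 273 lower), 67.5% under median-of-ratios scaling (1670 and 804) and 58.9% under quantile normalization (1413 and 986), and the cause was not tested. The 10 genes stayed higher under each scaling, 0.57 to 2.76 above the median gene as deposited. Fbn2 relative to Fbn1, which was not past the threshold, ranged from -0.091 to 0.30 with 1 library left out, falling below 0 without control library 4 (-0.013) and without ANG II library 4 (-0.091). Relative to the fibroblast lineage markers, Fbn2 ranged from 1.35 to 1.84 and Fbln1 from 0.24 to 0.36 with 1 library left out. The adjusted p of the exact permutation test then reached 0.0571 for Fbn2 without any 1 control library (1.45 to 1.64) and for Fbln1 without any 1 control library or ANG II library 4. With a pseudocount of 0.1 Fbln1 was at 0.28 (exact permutation test, adjusted p = 0.0571), and relative to Pdgfra alone Fbn2 was at 1.27 and Fbln1 at 0.051. Over all genes tested, deviations of same-numbered libraries correlated at -0.032 to 0.062. This does not settle pairing for the 10 genes. With the replicate number as a block, limma called 2700 genes higher and 268 lower, and all 10 elastic fibre genes remained called. With 1 library of each group per block, their log2 fold changes and the median of 1.90 could not change. Their standard errors could, and went from 0.173 to 0.0997 for Eln, 0.209 to 0.0853 for Mfap4 and 0.131 to 0.125 for Fbln1. Depth limited Mfap2 and Fbn2 most, with as few as 15 and 43 fragments in a control library.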
